A study of Schizosaccharomyces pombe
Saccharomyces cerevisiae with 24 samples.

Results

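The carbon source regulators of the Snf1 network described here were 10 genes, taken by their systematic identifiers out of the 7127 genes of the deposited count tables. They were SNF1 (YDR477W), MIG1 (YGL035C), MIG2 (YGL209W), MIG3 (YER028C), ADR1 (YDR216W), CAT8 (YMR280C), SIP4 (YJL089W), RGT1 (YKL038W), MTH1 (YDR277C) and STD1 (YOR047C). The files do not pair identifiers with gene names, so the 10 names are those of the rule that chose the genes. No measured value entered that rule, but the genes were chosen with earlier results of these data known.

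The study measured newly made and steady-state RNA in the diploid Saccharomyces cerevisiae strain W303, the parent of strains used to time the binding of general transcription factors. Cells were grown at 30 °C in YEP with 2% raffinose and then given galactose for 60 or 20 min. At each time an aliquot received 4-thiouracil (4sU), a uracil analog that is built into new RNA, for 6 min, and another aliquot received none. RNA was biotinylated at the thiol group and pulled down, which gave a labeled fraction (bound, mostly made during the pulse) and an unlabeled fraction (the flow-through), and total RNA was sequenced beside them.

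The 12 groups were thus labeled, unlabeled and total RNA, each with and without 4sU, each at 60 and at 20 min, with 2 replicates per group and 24 libraries in all. Every group shared the strain, the raffinose culture and the added galactose, and no group without galactose was analysed here. Each replicate was a culture of its own that supplied both times and both aliquots. S. pombe cells labeled with 4sU were mixed in at 1 for every 8 S. cerevisiae cells before RNA was isolated. The values below are S. pombe-normalized counts, that is counts divided by the S. pombe reads of the library over 2000000. They compare libraries of a fraction, not genes with each other, since no gene lengths were used, and not fractions with each other, since the pull-down also takes labeled S. pombe RNA.

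Budding yeast prefers glucose, and the Snf1 protein kinase, the yeast member of the AMP-activated kinase family, is needed to use other carbon sources. When glucose is scarce, Snf1 acts on Mig1, a zinc finger repressor of glucose-repressed genes, and on activators such as Adr1, Cat8 and Sip4, which turn on genes for ethanol, acetate, glycerol and fatty acid use and for gluconeogenesis. Another branch, with the repressor Rgt1 and its partners Mth1 and Std1, keeps hexose transporter genes off until glucose is sensed at the cell surface.

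Raw counts per library were from 6600472 to 38373886 in labeled RNA with 4sU, from 4781419 to 25744071 in total RNA with 4sU and from 2910909 to 5613817 in unlabeled RNA with 4sU. Without 4sU they were from 1073888 to 4751222 in labeled RNA. A library stood apart from its group: labeled RNA without 4sU at 20 min, replicate 1, had a normalized total of 3259250, against 223290 to 328641 in the other labeled libraries without 4sU. Of 6 genes known to be off or low in a/alpha diploid cells, identified by hand, 5 had medians from 0 to 7.09 normalized counts over the 8 total RNA libraries and the sixth, YGR044C, had a median of 33.0. Differences were tested on the raw counts by edgeR's quasi-likelihood method, with S. pombe reads as library sizes, over the 6069 genes that had a count in at least 12 of the 24 libraries. SNF1, MIG1, MIG2, ADR1, CAT8, SIP4, RGT1, MTH1 and STD1 passed this filter and MIG3 did not. A gene is called below at an adjusted p under 0.05, and log2 fold changes are given with their SE.

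The first question was whether these regulators were made at another rate at 60 than at 20 min in galactose. In labeled RNA, SIP4 fell, and the other 8 members that passed the filter were not called. SIP4 encodes a zinc cluster activator of gluconeogenic genes that interacts with the Snf1 kinase. It had 47.8 and 55.7 normalized counts in the 60 min libraries, against 402 and 298 in the 20 min libraries. Both 60 min values were far below both 20 min values, and 45.0% of all tested genes were likewise lower in both 60 min libraries. The log2 fold change of SIP4 was -2.76 ± 0.56, a level 6.77-fold lower at 60 min (Benjamini-Hochberg adjusted p = 1.35e-04, edgeR's quasi-likelihood test). The count of 1 member lower out of 9 stands beside 1.25% of all tested genes called lower, and 1.35% called in either direction. The median gene changed by -0.43 on the same scale, so SIP4 lay 2.33 below it. Without replicate 1 of labeled RNA at 20 min, the fold change of SIP4 was -2.52 with an adjusted p of 0.0524 in the same edgeR test, which is no longer a call. With any of the other 3 labeled libraries left out it was from -2.96 to -2.65 and stayed called. In bulk RNA, fewer cells with a transcript and less of it per cell cannot be told apart.

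The 2 other activators were not called in labeled RNA. CAT8, a zinc cluster activator of gluconeogenesis that is known to control SIP4 itself, had 1350.0 and 1624 normalized counts at 60 min, against 2267 and 1442 at 20 min. Its groups overlapped, and the log2 fold change was -0.32 ± 0.47, with an interval of 2 SE from -1.27 to 0.63. ADR1, the activator of genes for ethanol, glycerol and fatty acid use, had 3926.5 and 6796 normalized counts at 60 min, against 9180 and 6341 at 20 min. Its groups overlapped too, and the log2 fold change was -0.53 ± 0.45, with an interval from -1.44 to 0.37. Neither gene was tested against SIP4 for a difference in its change.

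**Figure D1:**
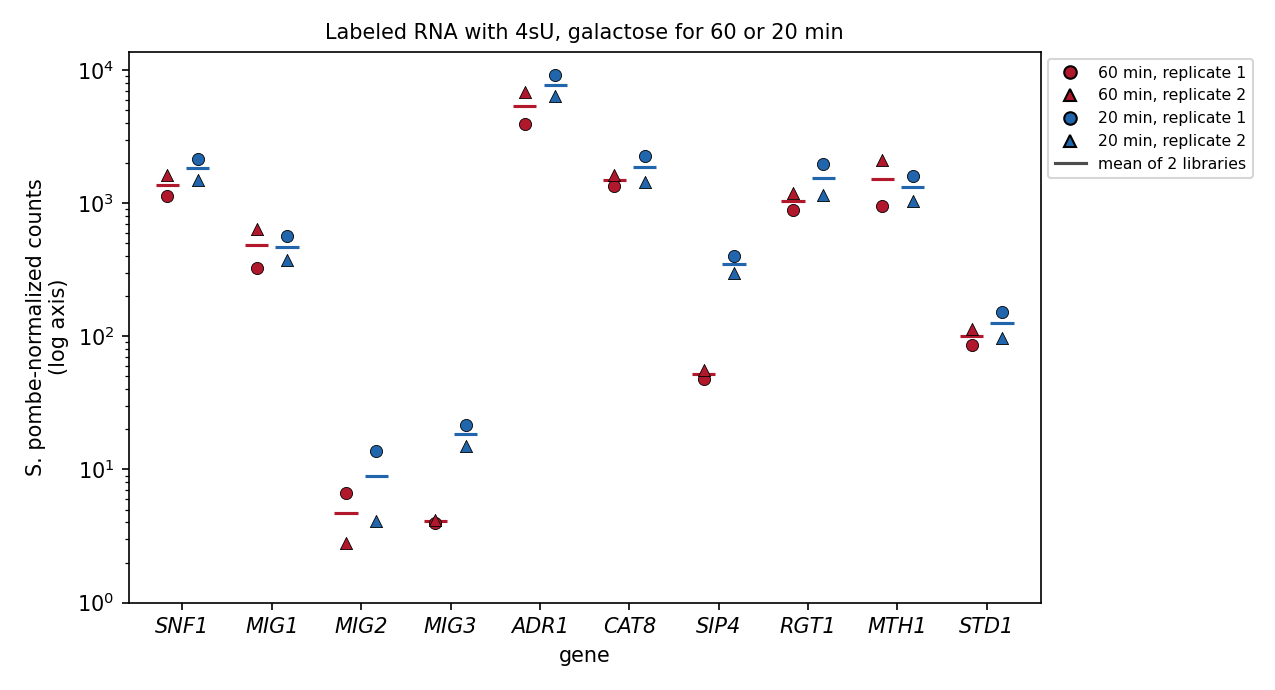
S. pombe-normalized counts (log axis) of the 10 genes in labeled RNA with 4sU, at 60 min (red, left) and 20 min (blue, right) in galactose. Points are single libraries, with circles for replicate 1 and triangles for replicate 2, and bars are means of 2 libraries; the times separate for SIP4 and MIG3 (as for 45.0% of all tested genes in that direction), and overlap for the other 8 genes.

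The kinase gene SNF1 had 1124 and 1621 normalized counts in labeled RNA at 60 min, against 2152 and 1492 at 20 min. The groups overlapped and SNF1 was not called (log2 fold change -0.41 ± 0.47). MIG1 had 324 and 642 normalized counts at 60 min, against 567 and 375 at 20 min, and its fold change of 0.03 ± 0.48 had an interval from -0.93 to 0.99. For MIG1 the lowest and the highest of the 4 values were both at 60 min.

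MIG2 and MIG3, zinc finger repressors related to Mig1, were at the limit of counting. MIG3 had 3.99 and 4.18 normalized counts in labeled RNA at 60 min, against 21.7 and 15.0 at 20 min. The groups did not overlap, as for 45.0% of tested genes in that direction, and these values stand for 6 reads at 60 min and 65 reads at 20 min. The ratio of 60 over 20 min was 0.202, with an exact 95% counting interval from 0.0717 to 0.465 that leaves out the spread between cultures. In a fit with no filter on low counts, MIG3 had a log2 fold change of -2.19 ± 0.99 and an adjusted p of 0.686 by edgeR's quasi-likelihood test, so its difference was not called. MIG2 had 6.64 and 2.78 normalized counts at 60 min, against 13.6 and 4.08 at 20 min, with overlapping groups and 7 against 37 reads.

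Among the genes of the hexose transporter branch, none was called in labeled RNA. RGT1, the repressor, had 892 and 1199.7 normalized counts at 60 min, against 1953 and 1148 at 20 min. MTH1, a corepressor partner of Rgt1, had 955 and 2090.4 normalized counts at 60 min, against 1612 and 1039 at 20 min. STD1, the paralog of MTH1, had 86.4 and 114 normalized counts at 60 min, against 153 and 96.6 at 20 min. All 3 overlapped between the times, with log2 fold changes of -0.57 ± 0.47 for RGT1, 0.20 ± 0.47 for MTH1 and -0.33 ± 0.54 for STD1.

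The ratios of 60 over 20 min differed between the replicate cultures, for the median gene as well as for most members. The shares of all genes that were lower or higher in each culture were not counted. In replicate 1 all 8 members with more than 3 counts in each labeled library were lower at 60 than at 20 min, and the median log2 ratio over all genes was -0.92. In replicate 2, 7 of these 8 were higher at 60 min, and the median over all genes was 0.01. SIP4 was the exception, with log2 ratios of 60 over 20 min of -3.07 in replicate 1 and -2.42 in replicate 2. The part that the scale of each library had in these ratios was not tested. With TMM scaling, which sets the typical gene near 0, SIP4 stayed called at -2.28, while SNF1, CAT8 and STD1 turned to small positive values that were not called.

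The times also separated for SIP4 outside labeled RNA. In total RNA with 4sU it had 3.89 and 6.11 normalized counts at 60 min, against 16.1 and 10.1 at 20 min. In total RNA without 4sU it had 1.48 and 2.23 at 60 min, against 16.2 and 7.98 at 20 min, on 6 against 28 reads. Both 60 min libraries were below both 20 min libraries in each case, and the log2 fold changes were -1.47 ± 0.65 with 4sU and -2.58 ± 0.90 without. Neither passed edgeR's quasi-likelihood test after adjustment over all genes (adjusted p = 0.560 with 4sU and 0.315 without).

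The remaining SIP4 groups had few reads but lay in the same order. In unlabeled RNA with 4sU it had 0 and 1.85 normalized counts at 60 min, against 3.16 and 6.57 at 20 min. In unlabeled RNA without 4sU it had 0.786 and 1.70 at 60 min, against 10.1 and 20.6 at 20 min. In the pull-down without 4sU it had 0.834 and 0.832 at 60 min, against 6.17 and 10.03 at 20 min. SIP4 was thus lower in both 60 min libraries in all 6 combinations of fraction and 4sU. That held for 1 of the 9 members that passed the filter and for 3.11% of all tested genes. The 6 combinations come from the same 2 cultures and are not independent. RGT1 was lower without overlap in 4 of the 6 combinations, and 15.6% of all tested genes in at least 4. These 4 for RGT1 include the pull-down without 4sU, which holds the library that stood apart, and unlabeled RNA with 4sU, where the median gene was lower at 60 min in both cultures.

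**Figure D2:**
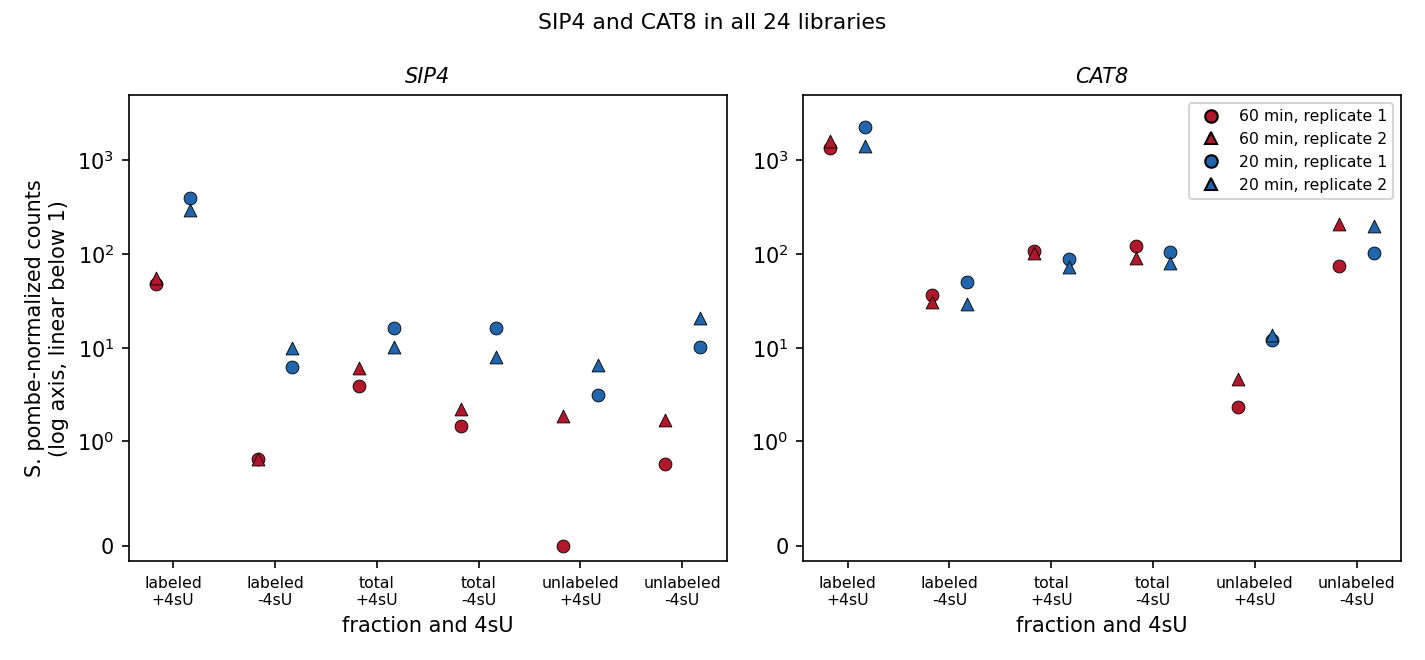
S. pombe-normalized counts (log axis, linear below 1) of SIP4 (left) and CAT8 (right) in all 24 libraries, by fraction and 4sU, with 60 min in red and 20 min in blue. Circles are replicate 1 and triangles replicate 2. SIP4 at 60 min lies below 20 min in all 6 combinations, as do 3.11% of all tested genes. CAT8 at 60 min lies below 20 min in unlabeled RNA with 4sU and above it in total RNA with 4sU. The share of all genes that separate as CAT8 does was not counted.

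In total RNA with 4sU, 0 of the 9 members were called between the times by edgeR, where 1.22% of all genes were called, 1.04% were called lower and 416 genes had an unadjusted p under 0.05. By DESeq2 as well, none of the 9 was called. SNF1 had 93.3 and 85.0 normalized counts at 60 min, against 76.1 and 66.3 at 20 min. CAT8 had 109 and 104 at 60 min, against 87.8 and 72.6 at 20 min. For both genes, and for MIG2 on few reads, the 60 min values were above the 20 min values. How many of all genes separate upward in this fraction was not counted, so that order is a description. The log2 fold changes of SNF1 and CAT8, 0.33 ± 0.49 and 0.41 ± 0.49, were smaller than their SE.

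ADR1 had 206 and 238 normalized counts in total RNA at 60 min, against 219 and 186 at 20 min. RGT1 had 48.2 and 63.0 at 60 min, against 69.9 and 53.1 at 20 min. MTH1 had 36.2 and 47.1 at 60 min, against 36.7 and 21.9 at 20 min. The times overlapped for these 3 genes. MIG1, with 10.7 and 13.5 at 60 min against 15.2 and 4.68 at 20 min, overlapped as well. STD1 had 4.14 and 8.56 at 60 min, against 4.48 and 4.68 at 20 min, so its 60 min values lay on either side of those at 20 min. MIG2 and MIG3 were listed at 0 in both 20 min libraries and had 6 reads each at 60 min. All 6 reads of MIG3 and 2 of the 6 of MIG2 came from replicate 1 at 60 min. That library had 25744071 counts, against 5897625 and 4781419 in the 20 min libraries. In total RNA without 4sU, 0 of 9 were called by edgeR, beside 0.840% of all genes and 270 genes with an unadjusted p under 0.05. DESeq2 called none either and gave no adjusted p for 3 of the 9.

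**Figure D3:**
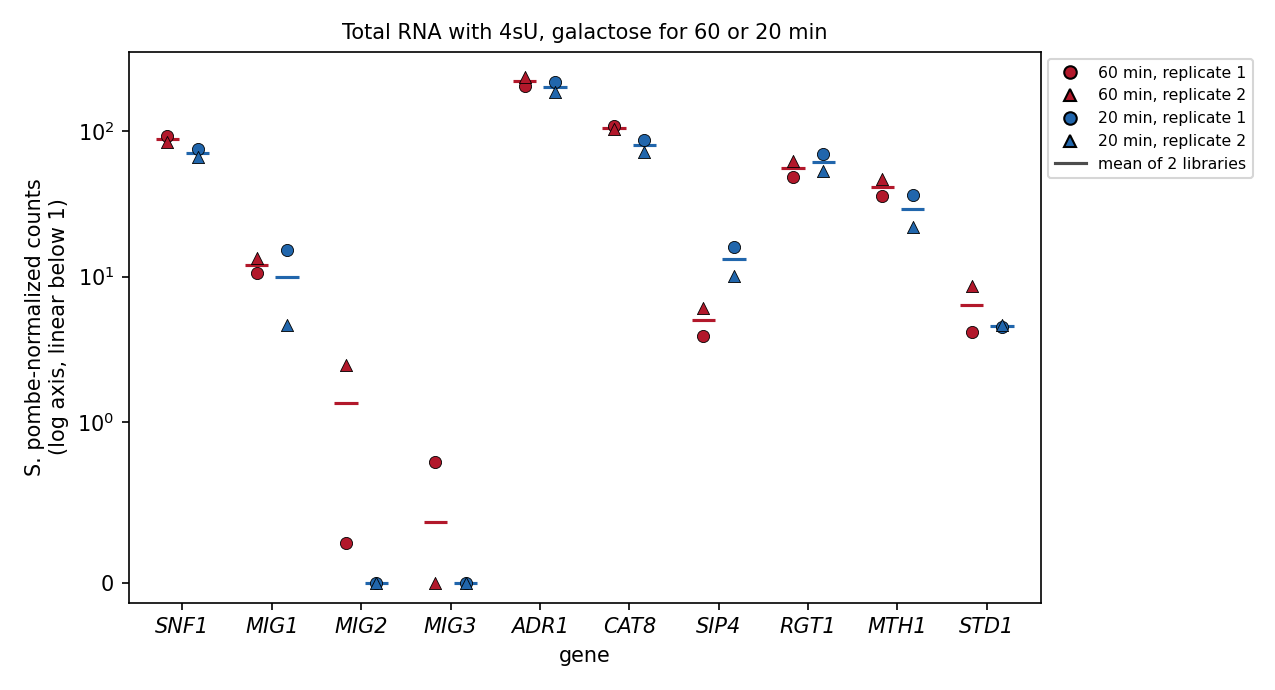
S. pombe-normalized counts (log axis, linear below 1) of the 10 genes in total RNA with 4sU, at 60 min (red, left) and 20 min (blue, right). Circles are replicate 1, triangles replicate 2 and bars means of 2 libraries. The 60 min values of SIP4 lie below, and those of SNF1, CAT8 and MIG2 above, the 20 min values. MIG2 has few reads, and the share of all genes that separate upward here was not counted.

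Whether newly made RNA changed with time by another factor than total RNA was tested as the difference of the 2 log2 fold changes. None of the 9 members was called by edgeR or by DESeq2. Over all genes edgeR called 0.0330%, DESeq2 called 0, and 67 genes had an unadjusted p under 0.05 in edgeR. For SIP4 the difference was -1.29 ± 0.85 on the log2 scale, labeled minus total RNA. For SNF1 it was -0.74 ± 0.68, for CAT8 -0.73 ± 0.68 and for ADR1 -0.67 ± 0.64.

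In unlabeled RNA with 4sU, most of it made before the pulse, SNF1, ADR1, CAT8 and RGT1 fell between the times. These 4 of 9 members stand beside 30.5% of all genes called lower, and the median gene had a log2 fold change of -1.16. RGT1 had 3.47 and 2.77 normalized counts at 60 min, against 13.3 and 17.7 at 20 min. CAT8 had 2.31 and 4.62 at 60 min, against 12.004 and 13.8 at 20 min. The 60 min values of both genes were well below those at 20 min.

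SNF1 had 12.7 and 12.02 normalized counts in unlabeled RNA at 60 min, against 31.0 and 44.0 at 20 min. ADR1 had 9.24 and 14.3 at 60 min, against 20.8 and 42.7 at 20 min. None of the 4 genes overlapped between the times, and the share of all genes that do not overlap in this fraction was not counted. The median log2 ratio of 60 over 20 min over all genes was -0.84 in replicate 1 and -1.31 in replicate 2. The log2 fold changes, with p-values of edgeR's quasi-likelihood test adjusted by Benjamini-Hochberg, were -2.30 ± 0.66 for RGT1 (adjusted p = 0.00672), -1.84 ± 0.65 for CAT8 (0.0245), -1.60 ± 0.54 for SNF1 (0.0198) and -1.41 ± 0.53 for ADR1 (0.0310). Relative to the median gene these were -1.14, -0.68, -0.44 and -0.25. All 4 calls were lost with TMM scaling (fold changes from -1.27 to -0.31), and in a fit of the unlabeled libraries alone, where 63 genes were called in place of 1852. Each was also lost without replicate 1 at 60 min and without replicate 2 at 20 min, and those of SNF1 and ADR1 without replicate 2 at 60 min. SIP4 had a fold change of -2.19 ± 0.94 and an adjusted p of 0.0583 in this edgeR test. It was called by DESeq2 (adjusted p = 0.0482), and by edgeR without replicate 1 at 20 min (-2.63) or without replicate 2 at 60 min, which leaves a 60 min library with 0 reads. Without replicate 1 at 60 min SIP4 was at -1.36 and without replicate 2 at 20 min at -1.58, and was not called. MIG1, MTH1 and STD1 had at most 4 reads per group in this fraction.

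**Figure D4:**
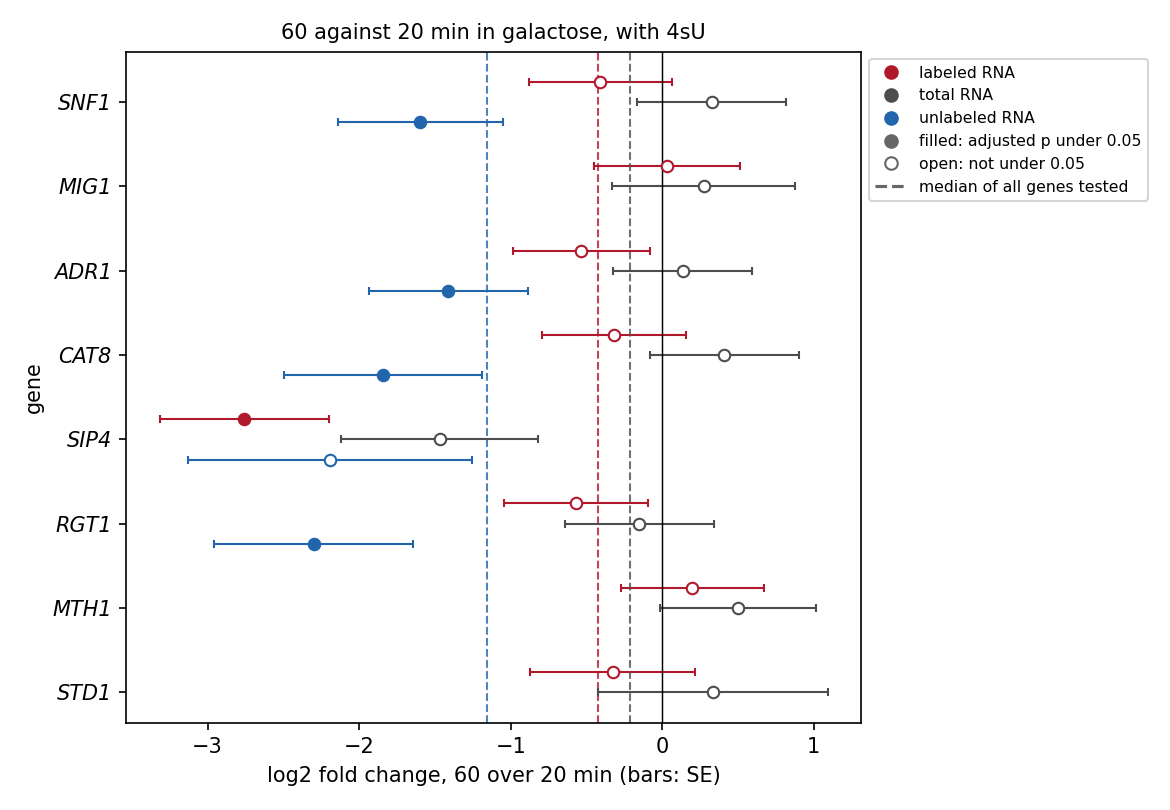
Log2 fold change of 60 over 20 min with its SE, with 4sU, in labeled (red), total (grey) and unlabeled RNA (blue), filled where the edgeR adjusted p was under 0.05; dashed lines are the medians of all 6069 genes. SIP4 is the filled point in labeled RNA, and the 4 filled points in unlabeled RNA (SNF1, ADR1, CAT8, RGT1) lie below the median of that fraction, by 0.25 (ADR1) to 1.14 (RGT1), and are not called with TMM scaling; MIG2, MIG3 and members with at most 4 reads per group in unlabeled RNA are left out.

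The pull-down itself was checked against libraries without 4sU. All 9 members that passed the filter were higher in labeled RNA with than without 4sU, as were 98.8% of all genes, and each of the 9 stayed called with any of the 8 libraries left out, including the library that stood apart. ADR1 had 3926.5 to 9180 normalized counts with 4sU (median 6569), against 89.5 to 128 without 4sU (median 113). SNF1 had 1124 to 2152 with 4sU (median 1557), against 19.5 to 41.2 without 4sU (median 21.0). The log2 fold changes of the members were from 4.16 for MIG2 to 6.01 for MTH1, around a median of 5.51 over all genes. The level without 4sU was from 1.60% to 3.61% of the level with 4sU in 8 of the 9 members, and 5.79% in MIG2. With TMM scaling, which removes the common rise, MIG1, ADR1, CAT8, SIP4, RGT1 and STD1 turned to negative values from -0.45 to -0.04 that were not called.

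In total RNA, adding 4sU for 6 min called 0 of the 9 members by edgeR, beside 4.70% of all genes and 1075 genes with an unadjusted p under 0.05. DESeq2 called none either and gave no adjusted p for 1 of the 9. ADR1 came nearest, with 206 and 238 normalized counts at 60 min and 219 and 186 at 20 min with 4sU, against 159 and 109 at 60 min and 183 and 140.0 at 20 min without 4sU. All 4 values of ADR1 with 4sU were above all 4 without, and the share of all genes that separate in this way was not counted. Its log2 fold change was 0.53 ± 0.26, beside a median of 0.22 over all genes. It did not pass edgeR's quasi-likelihood test after adjustment (adjusted p = 0.265).

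Most members were lower in unlabeled RNA with than without 4sU. This test was added after the members' values had been seen. MIG1, ADR1, CAT8, RGT1, MTH1, STD1 and SNF1 fell, 7 of 9 members beside 85.1% of all genes called lower, and each stayed called with any of the 8 libraries left out. With TMM scaling MIG1, ADR1, CAT8, RGT1 and MTH1 stayed called, and SNF1 and STD1 did not (STD1 at -1.33, adjusted p = 0.173 by edgeR). MTH1 had 1.16 and 0.462 normalized counts at 60 min and 1.26 and 0 at 20 min with 4sU, against 43.2 and 68.1 at 60 min and 39.6 and 38.4 at 20 min without. These are 5 reads with 4sU against 262 without, a level 64.5-fold lower with 4sU (exact 95% counting interval 27.3 to 200.4). The log2 fold change of MTH1 was -5.91 ± 0.76, below all but 0.692% of tested genes, and the Benjamini-Hochberg adjusted p was 4.43e-13 by edgeR's quasi-likelihood test.

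CAT8 had 2.31 to 13.8 normalized counts in unlabeled RNA with 4sU over the 4 libraries, against 75.4 to 212 without. MIG1 had 0.578 to 1.39 with 4sU, against 5.63 to 24.4 without. For both genes no library with 4sU reached the lowest without. The share of all genes that separate in this way was not counted, and 85.1% of all genes were called lower. The log2 fold changes were -4.36 ± 0.62 for CAT8 and -4.01 ± 0.75 for MIG1, and the MIG1 value rests on 7 reads with 4sU. ADR1 (-3.70 ± 0.58), STD1 (-3.64 ± 0.82), RGT1 (-3.33 ± 0.61) and SNF1 (-2.20 ± 0.57) followed, beside a median of -2.62 over all genes. SNF1 was thus less reduced than the median gene, and with TMM scaling its value was 0.26. SIP4 had 0 to 6.57 normalized counts with 4sU, against 0.786 to 20.6 without, and was not called (-1.23 ± 0.76, and 0.78 with TMM scaling). In labeled RNA without 4sU, the other side of the same aliquots, MTH1 had 15.1 to 30.9 normalized counts.

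Labeled RNA was compared with total RNA to ask which members had a higher ratio of labeled to total RNA than the typical gene. Here TMM scaling was used, so each ratio is relative to the other genes. At 60 min 7 of the 9 members were higher in labeled than in total RNA, beside 23.8% of all genes called higher and 40.0% called in either direction. At 20 min 8 of the 9 were higher, beside 27.3% called higher and 51.2% called in either direction. No member was called lower at either time. The median over the 9 members was 1.19 at 60 min and 1.54 at 20 min, against 0.01 and 0.07 over all genes at these times.

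MIG1 was called at both times, with log2 values of 2.33 ± 0.30 at 60 min and 2.397 ± 0.37 at 20 min. At 60 min it lay above 99.0% of all tested genes (Benjamini-Hochberg adjusted p = 1.07e-04, edgeR's quasi-likelihood test), and at 20 min above 96.8%. The value of MIG1 at 20 min rests on 17 and 6 reads in total RNA, and was 3.19 without replicate 1 and 1.94 without replicate 2 of total RNA at that time. MTH1 had 2.18 ± 0.27 and 2.30 ± 0.30, and ADR1 had 1.59 ± 0.15 and 2.03 ± 0.16, for 60 and 20 min. MIG1 and MTH1 differed by less than their SE at each time.

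The kinase gene and the other regulators had smaller ratios. SNF1 had log2 values of 0.94 ± 0.20 at 60 min and 1.45 ± 0.21 at 20 min, and RGT1 of 1.28 ± 0.21 and 1.43 ± 0.22. CAT8 had 0.83 ± 0.21 at 60 min and 1.30 ± 0.22 at 20 min, and STD1 had 1.19 ± 0.41 and 1.53 ± 0.51. The call of CAT8 at 60 min was lost without replicate 1 of labeled or replicate 2 of total RNA at that time (adjusted p of 0.0548 and 0.0649 by edgeR). STD1 lost its call at 60 min without either labeled library or replicate 1 of total RNA, and at 20 min without replicate 1 of labeled RNA or either total library. SIP4 had 0.52 ± 0.40 at 60 min, not called (adjusted p = 0.334 by edgeR), and 1.54 ± 0.37 at 20 min, called (adjusted p = 0.00366). The difference between these times was -1.29 ± 0.85 on the S. pombe scale, given above, and was not called. MIG2, with 6 reads or fewer in total RNA at each time, is not given a ratio.

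**Figure D5:**
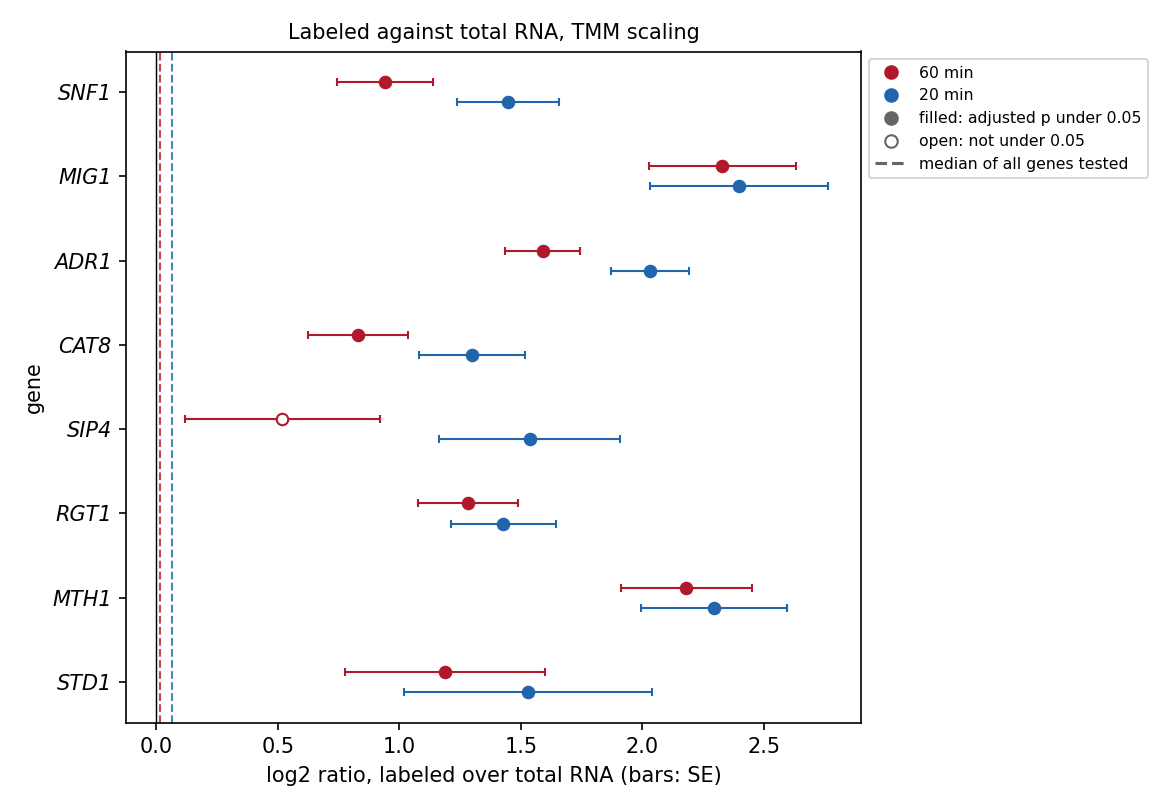
Log2 ratio of labeled over total RNA with its SE, TMM scaling, at 60 min (red) and 20 min (blue), filled where the edgeR adjusted p was under 0.05; dashed lines are the medians of all 6069 genes. All points lie above the medians, with MIG1 and MTH1 above 2 at both times and SIP4 at 60 min open; MIG2 and MIG3 are left out for few reads.

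Other genes around the same pathway were counted from lists whose identifiers were assigned by hand and which were chosen with earlier results of these data known. Of 10 genes for other subunits of the Snf1 complex and for kinases and phosphatase subunits that act on it, 1 was lower and 0 higher in labeled RNA at 60 than at 20 min, beside 1.25% of all genes called lower. Their median log2 fold change was -0.52, against -0.43 over all genes. The 1 call was lost without replicate 1 of labeled RNA at 60 min and without either replicate at 20 min, and 2 were lower with TMM scaling. Of 15 other carbon source regulators, sensors and corepressors, 0 were called, with a median of -0.43, and 2 were higher with TMM scaling. In total RNA no gene of either list was called between the times. TMM scaling called 1 of the 15 higher and 1 lower there, and a fit of the total libraries alone called 1 lower. In labeled against total RNA, 9 of the 15 were higher and 0 lower at 60 min (median 0.80), beside 23.8% of all genes called higher. At 20 min 11 of the 15 were higher and 1 lower (median 0.83), beside 27.3% called higher. Of the 10 genes of the first list, 3 were higher and 1 lower at each time.

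Genes that Cat8, Sip4 and Adr1 are known to activate were counted in the same way. Of 9 genes of gluconeogenesis, the glyoxylate cycle and related transport and carbon metabolism, 9 were lower in labeled RNA at 60 than at 20 min, with a median log2 fold change of -3.55, beside 1.25% of all genes called lower. In total RNA 8 of them were lower (median -3.68), beside 1.04% of all genes. With single labeled libraries left out, 7 or 8 of the 9 stayed called. Of 10 genes for ethanol, acetate, glycerol and fatty acid use, 8 were lower in labeled RNA (median -2.40), or 6 with any 1 labeled library left out, and 6 were lower in total RNA (median -2.59). CAT8 and ADR1 themselves were called in neither fraction, and SIP4 was called in labeled RNA. For the repressors, 0 of 4 hexose transporter genes that Rgt1 represses were called in labeled RNA by edgeR (median -0.78), and 1 was lower by DESeq2, with TMM scaling and in a fit of the labeled libraries alone. Of 5 genes for sucrose, galactose and hexose use that Mig1 represses, 1 was higher (median -0.27), beside 0.0989% of all genes called higher, and 0 with any 1 labeled library left out. With TMM scaling 2 of these 5 were higher, with a median of 0.22.

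SIP4 was also compared with every gene by its pattern over the 12 libraries with 4sU, after the mean of each fraction was taken off, among the 5145 genes that averaged 50 or more normalized counts there. The highest Pearson correlations were 0.976 for YAL067C, 0.975 for YER055C and 0.973 for YGR067C. YAL067C had means of 69.4 normalized counts in labeled RNA at 60 min and 381 at 20 min, and fell by 2.46 on the log2 scale. YGR067C had means of 525 at 60 min and 1941 at 20 min, and fell by 1.89 on the log2 scale. YER055C was not called between the times. These 12 libraries come from 2 cultures and share the scale of each library, so the correlations are a description. For ADR1 and RGT1 the nearest genes reached 0.990 and 0.988, and none of the 6 genes nearest to them was called in labeled RNA.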

How the data were processed

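The data were 24 RNA-seq libraries of diploid W303 yeast, from 12 groups of labeled, unlabeled or total RNA with 2 replicates each. The authors aligned paired-end reads to R64 with HISAT2 2.0.4, counted them per gene and by strand with featureCounts, which kept multi-mapping reads. The authors deposited these raw counts. A further deposited table holds a signal, each count divided by the S. pombe reads (ASM294v2) of each library over 2000000, which gave the values printed per library. Genes with near-identical copies may share reads.

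From the raw counts, edgeR 4.0.16 in R 4.3.3 gave quasi-likelihood tests with Benjamini-Hochberg adjustment over 6069 genes, with S. pombe reads as library sizes, taken back from the ratio of the 2 tables. Times were compared within a fraction in a fit of the 12 libraries with 4sU, or of the 8 total and unlabeled libraries without it. Tests of 4sU had time as a covariate, and labeled against total RNA used TMM. Depth ran from 1073888 to 38373886 counts per library. Exact intervals and floors cover counting error only. Each p-value rests on a spread between replicates that was pooled over all groups of its fit, with libraries treated as independent. In the fit of the 12 libraries with 4sU, fractions of an aliquot share a culture, so that spread is not that of the tested fraction alone. The tests were checked on simulated counts, drawn for independent libraries with the same spread for every gene. That check does not cover shared cultures or errors in the scale of a library.

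Replicate numbers pair the libraries, since by the growth protocol each culture supplied both times. The deviations of libraries with the same number correlated between the times at -0.07 in labeled RNA, 0.19 in total RNA, 0.13 in the unlabeled fraction and 0.13 in total RNA without 4sU. Alternatives were TMM or S. pombe scaling, DESeq2 1.42.0, other filters on low counts, a block for the replicate number, only the libraries of the compared fractions, and each library left out. All 10 members are named whatever their values. Genes of the lists are given by counts, and of the genes most like a member only those for SIP4 are identified. The members and lists were chosen with earlier results of these data known.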

Additional observations from a re-analysis of the deposited data

Results flagged for a closer look

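SNF1 and CAT8 had ratios of 60 over 20 min of opposite sign in unlabeled and total RNA with 4sU, in both cultures. The mean log2 ratio of 60 over 20 min for SNF1 was -1.58 in unlabeled RNA and 0.33 in total RNA, and for CAT8 it was -1.98 in unlabeled RNA and 0.42 in total RNA. The difference between these fractions was not tested. The share of all genes with opposite signs in these fractions was not counted, so the pattern is not shown to be particular to these genes. Neither gene was called in total RNA, and their calls in unlabeled RNA were lost with TMM scaling and in a fit of the unlabeled libraries alone. The medians over all genes were -0.84 and -1.31 in unlabeled RNA and -0.55 and 0.10 in total RNA, for replicates 1 and 2. In each culture the ratios of both genes were below that median in unlabeled RNA and above it in total RNA.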

How the results depend on the processing

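Of 622 alternatives to 57 tests of members, 564 kept direction and side of the threshold, 30 lost a call, 5 gained one and 23 reversed. These 57 are a chosen part of the member tests. In this tally, time by fraction and time in total RNA without 4sU were followed for SIP4 alone, and 4sU in total RNA for ADR1 alone. The call of SIP4 in labeled RNA held with TMM scaling, DESeq2, other filters and the replicate block. With TMM scaling, the genes called between the times numbered 253 in labeled RNA, 440 in total RNA, 469 in the unlabeled fraction and 212 in total RNA without 4sU, and 283, 460 and 3411 for 4sU in labeled, total and unlabeled RNA. Of those called for time in labeled RNA 127 were higher and 126 lower with TMM scaling, against 6 and 76 with S. pombe scaling, and for total RNA 164 of 440, unlabeled RNA 216 of 469 and 4sU in unlabeled RNA 1524 of 3411 were higher. TMM scaling reversed SNF1 (0.0565), CAT8 (0.18) and STD1 (0.15) for time in labeled RNA, RGT1 (0.0624) in total RNA, MIG1 (-0.44), ADR1 (-0.0443), CAT8 (-0.21), SIP4 (-0.34), RGT1 (-0.16) and STD1 (-0.45) for 4sU in labeled RNA, and SNF1 (0.26) and SIP4 (0.78) for 4sU in unlabeled RNA. TMM sets the typical gene to no change, which removes a common shift by construction. S. pombe scaling of labeled against total RNA called 5904 genes at 60 min and 5874 at 20 min. With the libraries of the compared fractions only, 162 genes were called for time in total RNA, 63 in unlabeled RNA and 5 for time by fraction, and DESeq2 called 0 of the last. The cause of these was not tested. With each library left out, the genes called between the times numbered 35 to 60 in labeled RNA, 33 to 65 in total, 100 to 3225 in unlabeled and 7 to 55 in total RNA without 4sU, with 2 to 7 for time by fraction, 100 to 307 for 4sU in total RNA, and 1303 to 1859 at 60 min and 2146 to 2567 at 20 min for labeled against total RNA. Leaving out single libraries reversed, for time in labeled RNA, MIG1 (-0.54 to 0.44), MIG2 (-1.82 to 0.21), CAT8 (-0.61 to 0.0446), MTH1 (-0.47 to 0.66) and STD1 (-0.61 to 0.0533), and for time in total RNA MIG1 (-0.36 to 1.33), RGT1 (-0.35 to 0.0591) and STD1 (-0.14 to 0.89). With the replicate block, 456 genes were called for 4sU in total RNA against 285 without it, and no call of a member changed. With 2 cultures per group, a leave-one-out arm holds 1 library, assumed to vary like the others. Members with few reads in both groups compared, such as MIG2 and MIG3 in total RNA, have wide errors at this depth.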
